A study of Mus musculus with 2 samples.

Results

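The genes described here are 38 mouse genes of macrophages, the complement system and antigen presentation, read in heart tissue by long-read RNA sequencing. They were taken by name as a list of macrophage surface and secreted proteins, complement components, class I and class II histocompatibility proteins, lysosomal proteases and a few leukocyte genes. All 38 had at least 1 count, among 16269 reference genes with counts. The series holds 1 group with 2 libraries, replicate 2 and replicate 1, both from the heart of male B6CASTF1/J mice aged 14 days. These animals are F1 hybrids between the laboratory strain C57BL/6J and CAST, a strain derived from wild mice, and no treatment or control group is part of the series. Per the labels, 2 µg of total RNA went into each library. The labels mention 3 males for a tissue sample but not whether their hearts were pooled, and give both libraries the same donor label. They also describe both libraries with the same tissue number and the same cDNAs, while the tissue itself is numbered 04 for replicate 2 and 03 for replicate 1. SDs therefore measure the spread between these libraries, which may be in part technical, and the exact tests below cover counting error alone.

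Macrophages settle in the heart before birth and are later joined by cells that arise from circulating monocytes. They take up dying cells and debris, degrade proteins in lysosomes, and make much of the tissue's C1q, the molecule that starts the classical complement pathway. Class I histocompatibility proteins show peptides from inside almost every nucleated cell to CD8 T cells. Class II proteins show peptides from the lysosomal pathway to CD4 T cells and are made mainly by macrophages, dendritic cells, B cells and thymic epithelium.

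The total on reference genes was 1064679 counts for replicate 2 and 1059016 for replicate 1. Counts were scaled to these totals as CPM, so that 1 count was worth 0.939 CPM in replicate 2 and 0.944 CPM in replicate 1. In the deposited tables a count is a read assigned to a transcript model, and long reads are not divided by transcript length. A gene with 0 counts could still lie at up to 2.82 CPM in replicate 2 and 2.83 CPM in replicate 1, the level of 3 counts. Cardiomyocyte markers, a check on the tissue label, took 4.36% of the counts in replicate 2 and 4.18% in replicate 1. Thymocyte markers summed to 241 counts in replicate 2 and 10 in replicate 1, over 17 genes. Atrial markers summed to 1278 counts in replicate 2 and 5154 in replicate 1, and red blood cell markers to 13622 and 18270 counts in the same order. These differences are given again below beside values of members, and with 2 libraries they cannot show that a marker and a member are linked.

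The members together held 6211 counts in replicate 2 and 5870 in replicate 1. That was 0.583% of the counts on reference genes in replicate 2 (95% exact Clopper-Pearson interval 0.569 to 0.598%) and 0.554% in replicate 1 (0.540 to 0.569%). Their summed level was 5834 CPM in replicate 2 and 5543 CPM in replicate 1, a mean of 5688 ± 205.6 CPM (SD, n = 2). Most of it came from the lysosomal proteases Ctsb and Ctsd and from Apoe. Without these the members held 1961 counts in replicate 2 and 1551 in replicate 1. Intervals here and below cover counting error alone, and in whole tissue fewer cells of a type cannot be told apart from less RNA per cell. Of the 38 genes, 28 had at least 20 counts over both libraries and 10 had fewer.

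**Figure D1:**
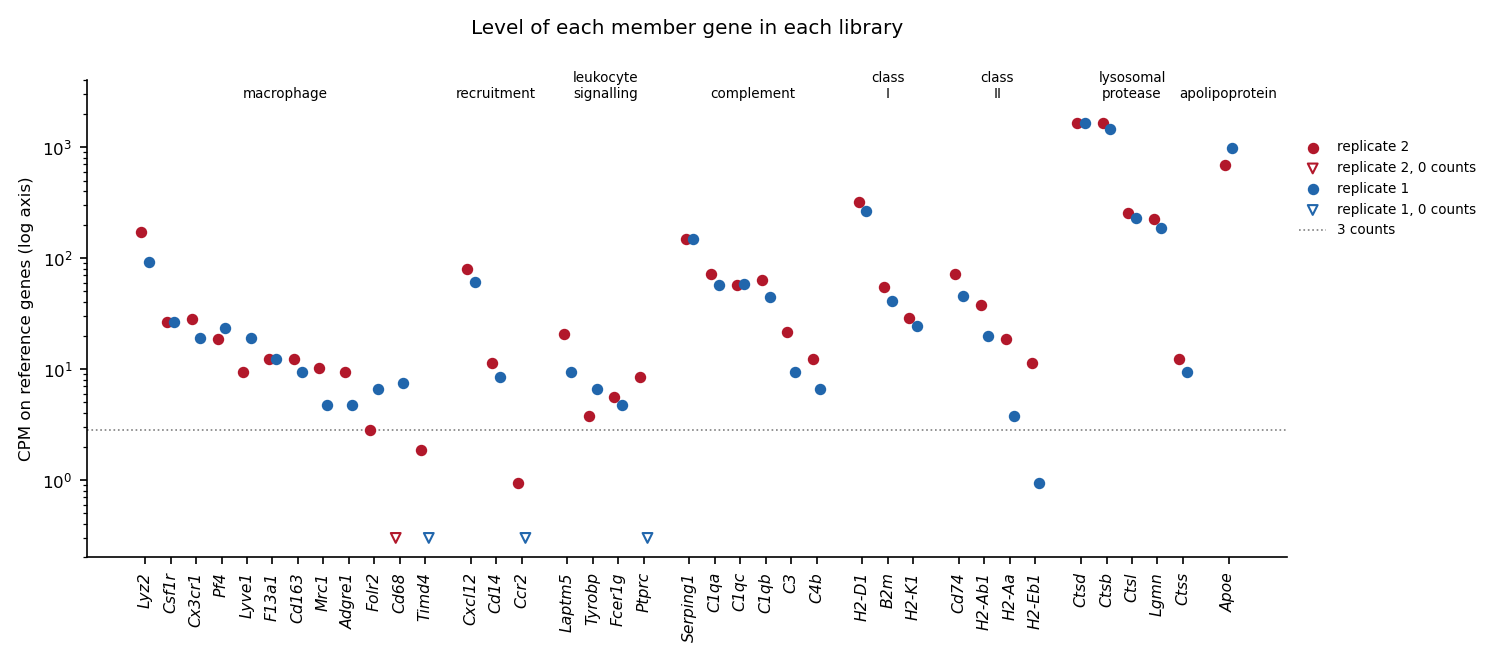
Level of each of the 38 genes in CPM on reference genes (log axis) in replicate 2 (red, left of each pair) and replicate 1 (blue, right), grouped by role. Open triangles stand for 0 counts and the dotted line for 3 counts; Cd68 is at 0 in replicate 2, and Ptprc, Timd4 and Ccr2 are at 0 in replicate 1.

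The macrophage genes were present at low to moderate levels. Lyz2, the lysozyme of myeloid cells that cleaves bacterial cell walls, had 182 counts in replicate 2 and 97 in replicate 1, or 170.9 and 91.6 CPM. It was the macrophage gene of this list with the most counts in both libraries. Its near copy Lyz1, identical over 95.1% of the coding bases, held 1 count in all. Csf1r, the receptor for the growth factor that keeps macrophages alive, had 28 counts in each library, 26.4 ± 0.0994 CPM (SD, n = 2). F13a1, the A subunit of coagulation factor XIII, also had equal counts, 13 in each library.

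Pf4, a chemokine of platelets and of resident macrophages, had 20 counts in replicate 2 and 25 in replicate 1. Lyve1, a hyaluronan receptor of lymphatic endothelium and of a resident macrophage subset, had 10 counts in replicate 2 and 20 in replicate 1. The hemoglobin-haptoglobin scavenger receptor Cd163 had 13 counts in replicate 2 and 10 in replicate 1. None of these genes passed the test between the libraries. The remaining macrophage genes had few counts. Adgre1, which encodes the F4/80 antigen, had 10 counts in replicate 2 against 5 in replicate 1, and the mannose receptor Mrc1 had 11 and 5. The folate receptor Folr2 had 3 counts in replicate 2 and 7 in replicate 1. Timd4, a phosphatidylserine receptor of long-lived resident macrophages, had 2 counts in replicate 2 and none in replicate 1. Cd68, a lysosomal glycoprotein, had none in replicate 2 and 8 in replicate 1. The 95% counting interval of its log2 ratio, replicate 2 over replicate 1, reached up to -0.78. Cd68 was too low to be tested at the minimum count of 10. Without a minimum count it did not pass, with an adjusted p of 0.15 in the exact binomial test.

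The counts filed under Cx3cr1, the fractalkine receptor, lay almost entirely outside that gene's exons. The gene had 30 counts in replicate 2 and 20 in replicate 1. Of these 50 counts, 46 belonged to an unspliced model of the class Genomic, with 27 counts in replicate 2 and 19 in replicate 1. The model spans chr9:120013755-120015214 in replicate 2 and ends at 120015441 in replicate 1 (mm10, minus strand). It lies wholly in the last exon of Xirp1, past the stop codon of Xirp1-201. Xirp1 encodes a protein of the intercalated discs of heart muscle and sits on the same strand inside a long intron of the annotated transcript Cx3cr1-202. Xirp1 itself was given 40 counts in replicate 2 and 33 in replicate 1. Models that touch the coding bases of Cx3cr1 held 1 count in replicate 2 and none in replicate 1. The 23.5 CPM listed for Cx3cr1 thus rests on reads outside its own exons. The gene was singled out after its counts were seen.

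Genes for the recruitment of leukocytes were led by Cxcl12, the ligand of Cxcr4, with 84 counts in replicate 2 and 65 in replicate 1. Cd14, a co-receptor for bacterial lipopolysaccharide on monocytes and macrophages, had 12 counts in replicate 2 and 9 in replicate 1. Its annotated counts fell on Cd14-201 (10 and 8) and on the retained-intron transcript Cd14-202 (2 and 1). Ccr2, the receptor that draws monocytes out of the blood, had 1 count in replicate 2 and none in replicate 1.

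Cxcl12 is spliced into forms that share their first coding exons and differ in the last coding stretch, which sets the protein's C terminus. The ends of the coding sequences are shown because the long reads tell these forms apart (GENCODE M21 transcripts, mm10, chromosome 6, plus strand, last shared coding bases in lower case and the bases particular to each form in capitals, up to and including the stop codon).
Cxcl12 alpha: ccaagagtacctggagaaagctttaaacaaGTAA
Cxcl12 beta: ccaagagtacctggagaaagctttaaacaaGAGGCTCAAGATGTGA
Cxcl12 gamma: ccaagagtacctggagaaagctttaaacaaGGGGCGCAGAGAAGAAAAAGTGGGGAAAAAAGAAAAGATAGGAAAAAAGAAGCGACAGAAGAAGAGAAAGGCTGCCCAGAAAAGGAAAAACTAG

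The gamma form adds a long run of codons rich in A and G, and the alpha form stops almost at once. The alpha form (Cxcl12-202) had 30 counts in replicate 2 and 22 in replicate 1, which was 76.5% of the 68 spliced annotated counts over both libraries (exact interval 64.6 to 85.9%). The gamma form (Cxcl12-201) had 9 counts in replicate 2 and 5 in replicate 1, or 20.6% (11.7 to 32.1%). The beta form (Cxcl12-203) had 1 count in each library, or 2.94% (0.358 to 10.2%). Among spliced annotated counts the order alpha, gamma, beta held in both libraries. A further 42 counts in replicate 2 and 36 in replicate 1 fell on an unspliced model of 3714 bases at chr6:117177653-117181366. It lies wholly in the last exon of the gamma transcript, past its stop codon, and over the whole last exon of the beta transcript. These 78 counts do not overlap the alpha transcript, whose last exon ends at 117175069. The model also begins ahead of the last exon of the beta transcript, which starts at 117178583. Whether the counts come from the gamma form was not tested. They outnumber the 52 spliced counts of alpha, so the shares and the order above hold for spliced annotated counts alone.

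Genes for leukocyte signalling were close to the floor. Laptm5, a lysosomal membrane protein of blood cells, had 22 counts in replicate 2 and 10 in replicate 1. The signalling adaptors Tyrobp and Fcer1g, which couple to activating receptors, had 4 and 6 counts in replicate 2, and 7 and 5 in replicate 1. Ptprc, the CD45 phosphatase found on all nucleated blood cells, had 9 counts in replicate 2 and none in replicate 1. The 95% counting interval of its log2 ratio, replicate 2 over replicate 1, began at 0.97. Ptprc was too low to be tested at the minimum count of 10. Without a minimum count it did not pass, with an adjusted p of 0.15 in the exact binomial test. All 9 Ptprc counts came from partial models, and 6 of them shared a chain of 22 exons. Thymocyte markers were also higher in replicate 2, with 241 counts against 10 in replicate 1, and their part in the Ptprc and Laptm5 values was not tested.

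Complement genes were led by Serping1, the C1 inhibitor, a serpin that blocks C1r and C1s and is made by many cell types besides macrophages. It had 158 counts in each library, 148.8 ± 0.561 CPM (SD, n = 2). The 3 genes for the chains of C1q, which lie side by side on chromosome 4 and assemble into a single molecule, were read at similar levels from transcripts of similar length. C1qa had 77 counts in replicate 2 against 61 in replicate 1, and its transcript C1qa-201 is 1040 bases long. C1qb had 67 counts in replicate 2 and 47 in replicate 1, with 1088 bases in C1qb-201. C1qc had 61 counts in replicate 2 and 62 in replicate 1, with 1203 bases in C1qc-201. Their mean levels were 65.0 ± 10.4, 53.7 ± 13.1 and 57.9 ± 0.884 CPM (SD, n = 2 each), and the values of the libraries overlap for each pair of chains. The coding sequences of the chains are identical over 59.3 to 61.1% of bases pair by pair.

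C3, the component on which all complement pathways meet, had 23 counts in replicate 2 and 10 in replicate 1. C4b, the classical pathway component that C1s cleaves, had 13 counts in replicate 2 and 7 in replicate 1. Its near copy C4a, identical over 95.9% of the transcript, had no count in either library. Neither C3 nor C4b passed the test, and their long transcripts were often read in part. Models with the whole coding sequence made up 33.3% of the C3 counts and 50% of the C4b counts.

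Serping1 counts came mainly from a model whose 5′ end lies inside the first intron of the full annotated transcript. Whether this end is a start of transcription or that of incomplete reads was not tested. The transcript Serping1-201, whose first exon covers chr2:84775363-84775404 (mm10, minus strand), had 11 counts in replicate 2 and 18 in replicate 1. A model of 7 exons had 135 counts in replicate 2 and 122 in replicate 1, 81.3% of all Serping1 counts. Its first exon, chr2:84774740-84775128, begins inside the first intron, at the same base as the short noncoding transcript Serping1-203, and runs into the second exon. The start codon at 84774788 to 84774790 lies in this exon, so the model holds the whole coding sequence although the authors' class for it is an incomplete match (ISM). Among counts that tell the first exons apart, this first exon took 136 of 149 in replicate 2, or 91.3% (exact interval 85.5 to 95.3%). In replicate 1 it took 124 of 146, or 84.9% (78.1 to 90.3%). The intervals overlap. A further new model of 4 exons at the 3′ end of the gene had 6 counts in replicate 2 and 8 in replicate 1. On reference transcript identifiers alone Serping1 would lie at 17 CPM.

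Smaller departures from the annotation were seen at the C1q genes. A donor inside the first intron of C1qc moved the end of the first exon by 50 bases, ahead of the start codon. It was used in 5 of 55 informative counts of replicate 2, or 9.09% (3.02 to 20.0%), and in 7 of 60 in replicate 1, or 11.7% (4.82 to 22.6%). The most counted model with this donor begins at 136892876 rather than 136893065 (minus strand). At 1064 bases it is shorter than C1qc-201. C1qa had a shorter model of 2 exons, which lacks the first, with 8 counts in replicate 2 and 5 in replicate 1.

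**Figure D2:**
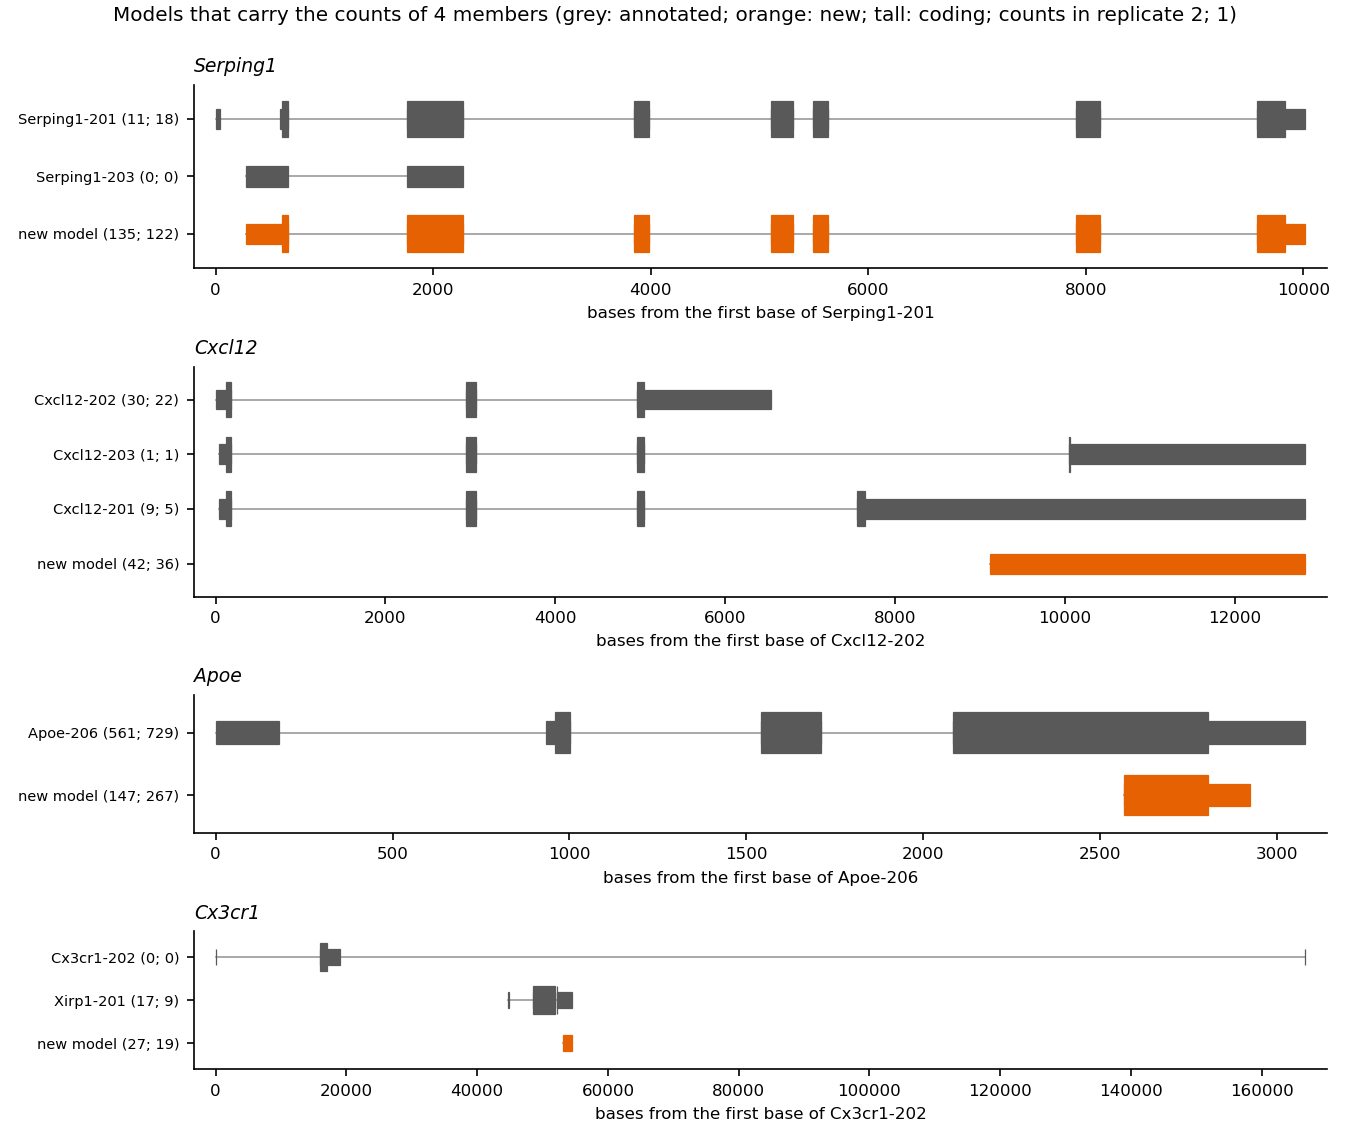
Exons of annotated transcripts (grey) and of the main new model (orange) of Serping1, Cxcl12, Apoe and Cx3cr1, against the distance in bases from the first base of the named transcript, in the direction of transcription. Tall boxes are coding bases, the coding bases of Cxcl12 beta inside the new Cxcl12 model are not drawn, and the numbers in brackets are counts in replicate 2 and then replicate 1. The new Serping1 model keeps all coding exons, the new Cxcl12 and Apoe models lie in last exons, and the Cx3cr1 model lies in the last exon of Xirp1.

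Of the class I genes, H2-D1, a heavy chain of the classical class I molecule, had 338 counts in replicate 2 and 279 in replicate 1, or 290.5 ± 38.2 CPM (SD, n = 2). B2m, beta-2-microglobulin, the light chain shared by all class I molecules, had 59 counts in replicate 2 and 43 in replicate 1. H2-K1, the other classical heavy chain, had 31 counts in replicate 2 and 26 in replicate 1. Thus H2-D1 had more counts than either of the others in both libraries. The main transcripts are 2102 bases long for H2-D1, 860 for B2m and 1570 for H2-K1. The coding sequences of H2-D1 and H2-K1 are identical over 90.7% of bases. The mm10 assembly is of C57BL/6J, and these genes are highly variable between strains. How well reads from CAST alleles were placed, and how reads were split among the near copies, was not tested, so the values of H2-D1 and H2-K1 are uncertain.

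Reads of H2-K1 ended in either of 2 last exons whose acceptors lie 27 bases apart, a difference that keeps the reading frame. The ends of the coding sequences are shown because this choice changes the end of the protein (the annotated forms H2-K1-201 and H2-K1-205 also start and end at different bases; GENCODE M21, mm10, chromosome 17, minus strand, shared exon in lower case, last exon up to and including the stop codon in capitals).
H2-K1-201: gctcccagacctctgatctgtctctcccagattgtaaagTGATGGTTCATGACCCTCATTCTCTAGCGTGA
H2-K1-205: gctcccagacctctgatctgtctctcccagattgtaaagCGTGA

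The longer end of H2-K1-201 uses the upstream acceptor. It was found in 10 of 28 informative counts of replicate 2, or 35.7% (exact interval 18.6 to 55.9%), and in 17 of 26 of replicate 1, or 65.4% (44.3 to 82.8%). The intervals overlap, and over both libraries each acceptor had 27 counts. On annotated transcripts alone, H2-K1-205 had 13 counts in replicate 2 against 6 in replicate 1, and H2-K1-201 had 7 and 10. H2-K1 had too few annotated counts in replicate 1 for the test of transcript choice.

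Annotated counts of H2-D1 fell on H2-D1-202, with 255 in replicate 2 and 208 in replicate 1, and 1 more fell on a retained-intron transcript in replicate 2. New models of H2-D1 recurred in both libraries. An acceptor inside exon 3 left out the first 114 bases of that exon, a length that keeps the reading frame. The bases left out, from an exon that codes for part of the peptide-binding groove, end in AG like an intron (GENCODE M21, mm10, chr17:35263839-35263952, plus strand, last 2 bases in capitals).
H2-D1 exon 3 start: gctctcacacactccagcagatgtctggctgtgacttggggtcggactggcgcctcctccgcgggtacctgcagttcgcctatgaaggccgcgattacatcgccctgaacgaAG

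This inner acceptor was used in 22 of 320 informative counts of replicate 2, or 6.88% (4.36 to 10.2%), and in 14 of 270 of replicate 1, or 5.19% (2.86 to 8.55%). The last intron of H2-D1, 139 bases long, was kept in 28 of 332 counts of replicate 2, or 8.43% (5.68 to 12.0%), and in 24 of 274 of replicate 1, or 8.76% (5.69 to 12.8%). Both shares were alike in the libraries within their intervals. The part of reads from CAST alleles or near copies in these shares was not tested. The most frequent new model, which differs from H2-D1-202 by the inner acceptor, had 18 counts in replicate 2 and 13 in replicate 1. The next, which keeps the last intron, had 17 and 13, and the other models with at least 10 counts over both libraries had 5 and 10, and 6 and 6.

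All 4 class II genes had more counts in replicate 2 than in replicate 1, and H2-Aa alone passed the test. Cd74, the invariant chain that guards the class II groove and guides the molecule to the lysosome, had 76 counts in replicate 2 and 48 in replicate 1. H2-Ab1, the beta chain of the A molecule, had 40 counts in replicate 2 and 21 in replicate 1. H2-Aa, its alpha chain, had 20 counts in replicate 2 and 4 in replicate 1, a log2 ratio of 2.05. H2-Eb1, the beta chain of the E molecule, had 12 counts in replicate 2 and 1 in replicate 1. The 4 genes summed to 148 counts in replicate 2 and 74 in replicate 1.

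The ratio of replicate 2 over replicate 1, without a pseudocount, was 4.97 for H2-Aa (95% counting interval 1.67 to 20.0). It was 11.9 for H2-Eb1 (1.77 to 512), with an adjusted p of 0.087 in the exact binomial test. For H2-Ab1 it was 1.89 (1.09 to 3.39) and for Cd74 1.57 (1.09 to 2.31), with adjusted p of 0.26 and 0.22 in the same test. H2-Aa passed at an adjusted p of 0.048 and did not pass under TMM scaling (0.052), median-of-ratios scaling (0.051) or without a minimum count (0.077). Nor did it pass on reference transcript identifiers alone or without ISM and Genomic models (0.10 for both), nor in edgeR's exact test with a common dispersion (0.53).

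The markers of cell types that also make class II proteins, or that come from tissue where such cells are common, moved as follows. Of 17 thymocyte markers, 16 had more counts in replicate 2 than in replicate 1, led by Satb1 (50 and 5 counts), Lck (44 and 0) and Tcf7 (35 and 3). Cd8a, Cd8b1 and Dntt, with 26, 25 and 14 counts in replicate 2, were at 0 in replicate 1, and Ptcra was at 0 in both. B cell markers summed to 24 counts in replicate 2 and 14 in replicate 1, with Ms4a1, Pax5, Cd22 and Blk at 0 in both libraries. Dendritic cell markers summed to 21 and 19, of which Zbtb46, also made by endothelium, held 16 in each, and Flt3, Clec9a and Siglech were at 0. The part of these cells in the class II values was not tested.

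Cd74 was read as the short form Cd74-201 and as Cd74-202, which carries an additional exon of 192 bases that codes for a thyroglobulin domain. Cd74-201 had 55 counts in replicate 2 against 28 in replicate 1, and Cd74-202 had 21 and 20. The short form made up 72.4% of the annotated counts in replicate 2 (60.9 to 82.0%) and 58.3% in replicate 1 (43.2 to 72.4%). The difference did not pass a two-sided Fisher's exact test (p = 0.12, adjusted p = 1).

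**Figure D3:**
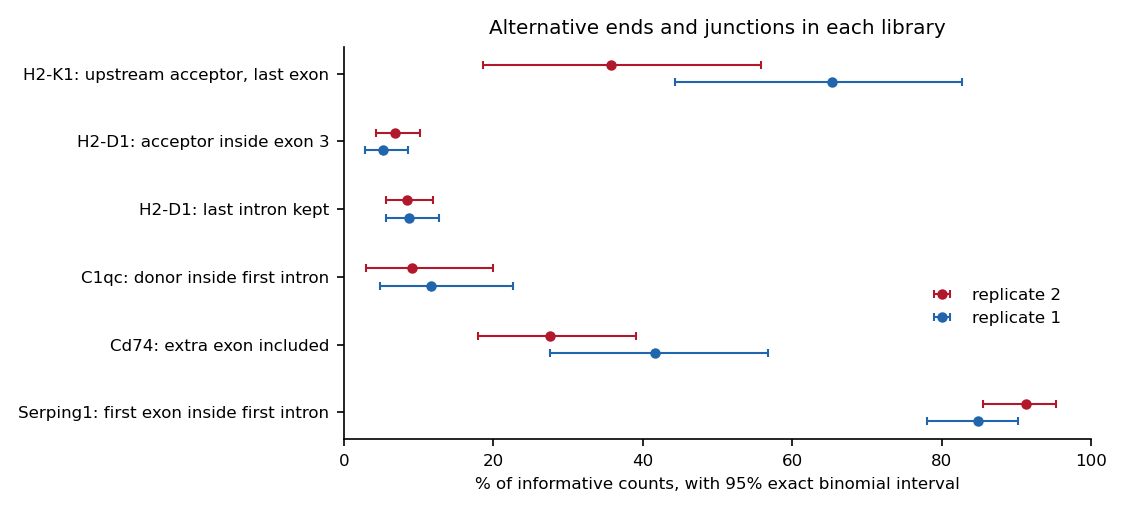
Share of informative counts, in percent with 95% exact binomial intervals, that used the named end or junction of H2-K1, H2-D1, C1qc, Cd74 and Serping1 in replicate 2 (red, upper) and replicate 1 (blue, lower). The intervals of the libraries overlap in every row, and the H2-K1 acceptor has the widest ones, at 35.7% in replicate 2 and 65.4% in replicate 1.

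The lysosomal proteases held the highest counts. Ctsd, the aspartic protease cathepsin D, had 1771 counts in replicate 2 against 1738 in replicate 1, and ranked 64 among all genes by mean level. Ctsb, the cysteine protease cathepsin B, had 1747 counts in replicate 2 against 1549 in replicate 1, and ranked 71. Both are made by most cell types, heart muscle included, and are not particular to macrophages. Ctsl, cathepsin L, had 273 counts in replicate 2 and 241 in replicate 1. Lgmn, the asparagine-specific protease legumain, had 240 counts in replicate 2 and 199 in replicate 1. Ctss, the cathepsin that trims the invariant chain in antigen-presenting cells, had 13 counts in replicate 2 and 10 in replicate 1. It was thus the lowest of the 5 proteases in both libraries.

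Protease transcripts were simple. Ctsd-202 and Ctsl-201 held all annotated counts of their genes, Ctsb-201 and Lgmn-201 held 99.8% each, and Ctss-202 held 91.3%. New models of Ctsd were mostly shorter at the 5′ end. The most frequent lacked the first exon and had 72 counts in replicate 2 against 61 in replicate 1, and the next, of 3 exons, had 38 and 35. The other 4 Ctsd models with at least 10 counts held 13 to 23 counts each over both libraries. The 3 spliced models of Ctsb with as many counts held 10 to 17 each. An unspliced Ctsb model, classed ISM and starting at chr14:63142232 in both libraries, held 30 counts in replicate 2 and 16 in replicate 1.

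Apoe, the apolipoprotein E of lipid transport, is made by macrophages and also by other cells. It had 732 counts in replicate 2 and 1032 in replicate 1, or 687.5 and 974.5 CPM, the only member past the threshold in the direction of replicate 1. Apoe-206 had 561 counts in replicate 2 against 729 in replicate 1, and was 96.6% of the annotated counts. A further 147 counts in replicate 2 and 267 in replicate 1 came from an unspliced model of 354 bases, chr7:19696267-19696620 (mm10, minus strand), inside the last exon and across the stop codon. Without models classed ISM or Genomic the log2 ratio of Apoe was -0.40, against -0.50 with them, and it still passed the test.

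Between the libraries, 4 of the 34 members with at least 10 counts passed a two-sided exact conditional binomial test with Benjamini-Hochberg adjustment over 10162 genes, and 30 did not. Over all genes tested, 331 passed, or 3.26%, with 1.60% higher in replicate 2 and 1.65% higher in replicate 1. Lyz2, H2-Aa and Ctsb were higher in replicate 2, and Apoe was higher in replicate 1. The log2 ratio of Lyz2, on CPM plus a pseudocount of 1, was 0.89, which is a ratio of 1.87 (1.45 to 2.41) with an adjusted p of 3.9e-05. Ctsb had a log2 ratio of 0.17 and an adjusted p of 0.034 in the same exact test, but a log2 ratio of 0.08 and an adjusted p of 0.55 under TMM scaling. With the trend of ratios on transcript length removed, its log2 ratio was -0.01. Apoe had a log2 ratio of -0.50, a ratio of 0.706 (0.642 to 0.774), and an adjusted p of 8e-11. The test covers counting error and sets these libraries, not conditions, against each other.

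When the spread of the libraries over all genes was put into the test, no member passed. In edgeR's exact test with a common dispersion of 0.01529, a coefficient of variation of 0.124, 0 of 34 members passed after adjustment. Of all 10162 genes tested only 22 passed, so the lack of calls is not particular to the members. Lyz2, H2-Aa and H2-Eb1 were the 3 of 34 members with an unadjusted p under 0.05 in that test, which 451 of the 10162 genes also had. In the exact binomial test 9 members had an unadjusted p under 0.05, as did 12.3% of all genes. The median log2 ratio of the tested members was 0.33, against 0.08 over all genes tested, and 25 of 34 ratios were positive (73.5%, against 56.1% of all genes). By role the median was 1.47 in the 4 class II genes, 0.41 in the 6 complement genes, 0.27 in the 3 class I genes, 0.36 in the 2 tested recruitment genes, 0.21 in the 3 tested leukocyte signalling genes and 0.17 in the 5 proteases. It was 0.17 in the 10 tested macrophage genes and -0.01 in the 9 of them other than Cx3cr1, whose counts lie mostly in Xirp1.

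**Figure D4:**
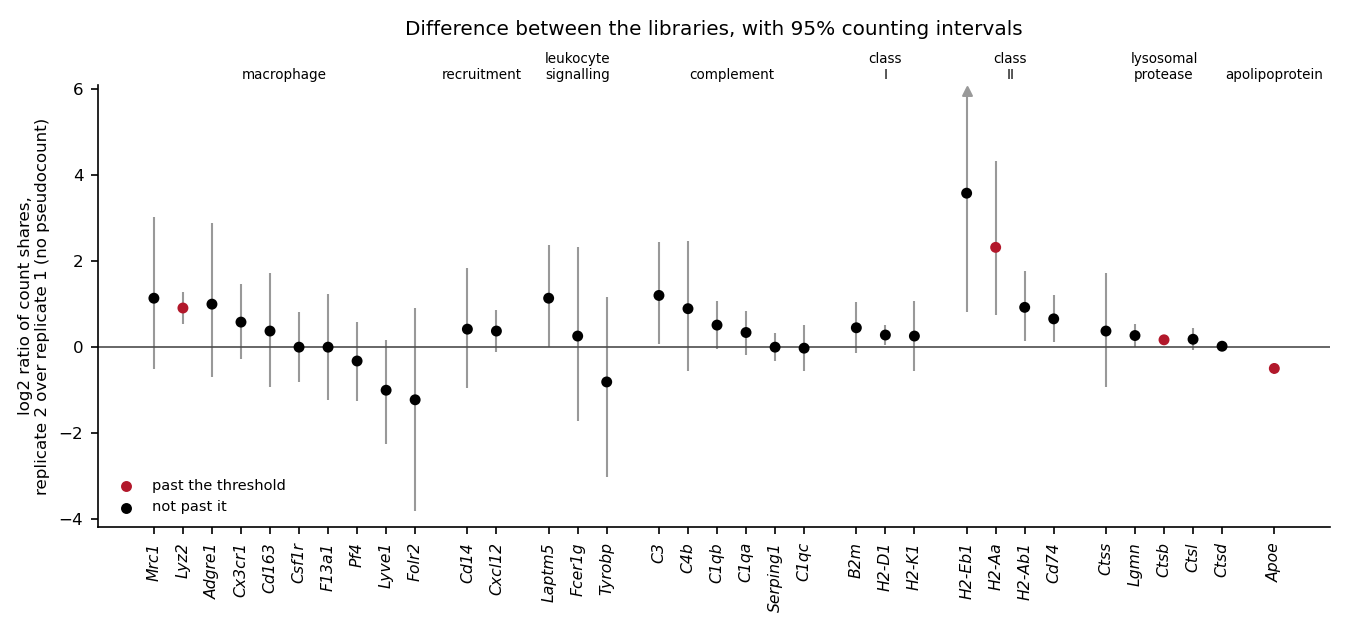
Log2 ratio of the share of counts, replicate 2 over replicate 1, without a pseudocount and with 95% exact counting intervals, for the 34 members with at least 10 counts, by role. Red points passed the exact binomial test after adjustment over all genes; the class II genes all lie above 0, and the interval of H2-Eb1 runs past the top of the axis.

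Beside the Lyz2 difference, neutrophil markers summed to 7 counts in replicate 2 and 2 in replicate 1, with S100a8, S100a9, Retnlg, Elane and Csf3r at 0 in both. Beside the Apoe difference, 4 of 4 atrial markers (Nppa, Myl4, Myl7 and Sln) and 4 of 5 tested red blood cell markers passed the test as higher in replicate 1. Brown adipocyte markers summed to 103 counts in replicate 2 and 185 in replicate 1. Most of that difference lay in Cidea (70 and 120) and Ucp1 (2 and 32). Cfd had 23 counts in each library, Plin1 had 2 in each, and Adipoq had 6 and 8. The part of these cell types in the values of Lyz2 and Apoe was not tested. Of 8 tested cardiomyocyte markers 4 passed, with Myh6 and Actc1 higher in replicate 2 and Tnni3 and Myl2 higher in replicate 1. Fibroblast and endothelial markers gave no call in either direction, in 8 tested genes each.

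The choice among annotated transcripts could be tested in 6 members with at least 20 annotated counts in each library, namely Apoe, Lgmn, Ctsb, Cd74, Cxcl12 and H2-D1. None passed Fisher's exact test after adjustment, with adjusted p of 1 in all 6, and Cd74 had the lowest unadjusted p, 0.12. None had an unadjusted p under 0.05. Over all 2633 genes tested, 1 passed, or 0.0380%. The share of the main transcript lay between 72.4 and 99.6% in replicate 2 and from 58.3% upward in replicate 1.

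The members were mostly read as annotated transcripts. The authors class each model as Known, as an incomplete match with part of a known chain of introns (ISM), as a new combination of known junctions (NIC), as holding a new junction (NNC), or as Genomic, which fits no spliced transcript. Over the 28 members with at least 20 counts, the median share of Known models was 86.8%, against 80.2% over 8012 protein-coding genes with as many counts. New junctions and combinations took a median of 2.11%, against 6.44%, and models with the whole coding sequence 91.2%, against 83.7%. Over the 8012 genes the lower and upper quartiles were 57.1 and 91.6% for Known models. They were 2.13 and 15.9% for new junctions and combinations, and 64.3 and 93.1% for whole coding sequences. The main transcripts of tested members were also shorter, with a median of 1655 bases against 2619 over all genes tested. These medians are given as a description, and the part of length in them was not tested. Of the 28 members with at least 20 counts, Cd74, H2-Ab1, Cd14 and Ctss had Known models alone. Of the same 28, Cx3cr1, Serping1, C3 and Cxcl12 were under 50% Known, at 0, 9.18, 33.3 and 45.6%. Cd163, whose annotated counts fell on Cd163-201 (6 counts in replicate 2 and 3 in replicate 1) and Cd163-202 (0 and 4), had 56.5%.

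**Figure D5:**
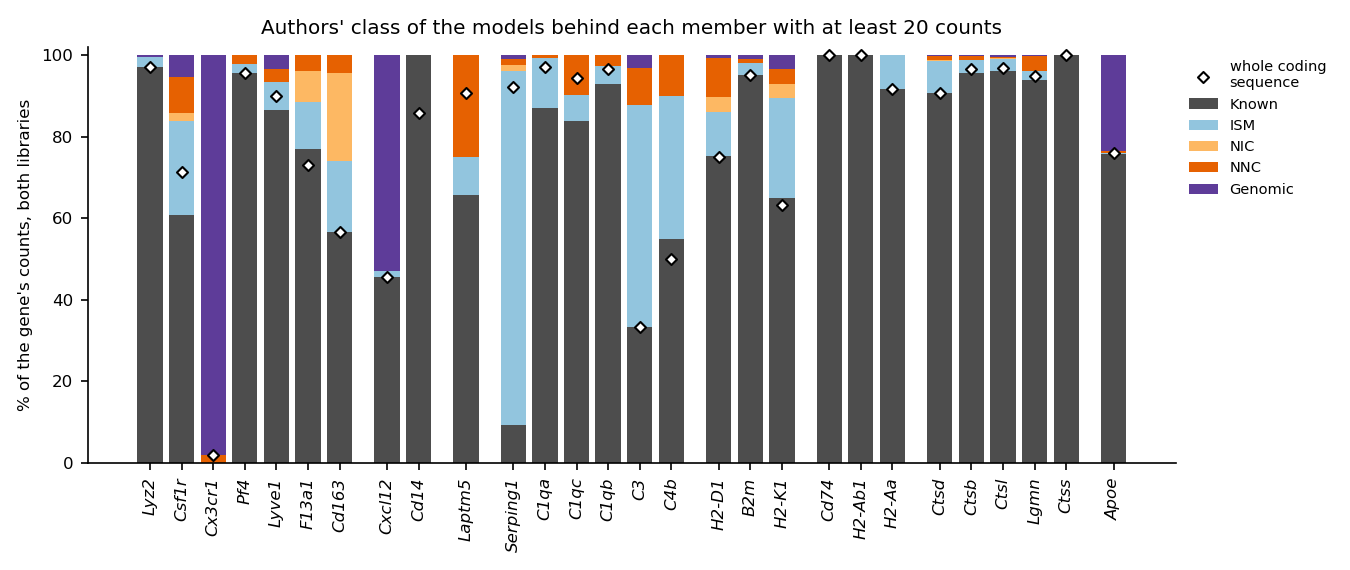
Share of each gene's counts over both libraries, in percent, by the authors' class of the transcript model, for the 28 members with at least 20 counts, in the order of the roles. White diamonds are the share of counts on models that hold the whole coding sequence: Serping1 is mostly ISM yet lies at 92.1%, while Cx3cr1 lies at 2.00%.

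Of the other genes of these pathways, which are not members, 2 of 87 tested genes passed, or 2.30%, against 3.26% of all genes. Of 35 other macrophage genes 13 could be tested, and Cd83, an activation marker of antigen-presenting cells, was the only call, with 43 counts in replicate 2 and 14 in replicate 1 (log2 ratio 1.54, adjusted p 0.0083 in the exact binomial test). Gas6, a ligand that bridges dying cells to phagocytes, had 133 counts in replicate 2 and 155 in replicate 1, its receptor Axl had 79 and 92, and Cyba had 63 in each. Of 26 other class I genes 20 could be tested, and the peptide-loading chaperone Pdia3 was the only call, with 199 counts in replicate 2 and 129 in replicate 1 (log2 ratio 0.61, adjusted p 0.0074). Tapbp had 163 counts in replicate 2 against 147 in replicate 1, and Fcgrt had 129 and 130.

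None of the 19 tested genes among 27 other complement genes passed. The most counted of these were C1qbp (354 in replicate 2 and 323 in replicate 1), Clu (138 and 166) and Cd59a (122 and 117). Other class II genes gave no call in 5 tested of 13, with the accessory genes Cd9 (100 and 126), Rfxap (54 and 45) and Rfxank (21 and 19) at the top. The H2 genes of this list were too low to be tested, so the lack of calls does not cover them. H2-DMa had 7 counts in replicate 2 and 2 in replicate 1, H2-DMb1 had 6 and 2, H2-DMb2 had 2 and 0, and H2-Ob had 0 and 1. H2-Eb2 and H2-Oa had no count. Ciita, the master regulator of class II genes, had no count in either library. Of 25 other lysosomal genes 24 were tested and none passed, with Lamp1 (738 and 633), Cst3 (596 and 672) and Ctsa (279 and 285) the most counted. Of 20 chemokine genes 6 were tested and none passed, with Ackr3, the scavenging receptor for Cxcl12, at 218 counts in replicate 2 and 163 in replicate 1, Csf1 at 22 and 24, and Cxcl16 at 12 and 13.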

How the data were processed

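Long-read RNA sequencing counts of 2 heart libraries were analysed. The authors deposited, per the file headers, whole-number counts of reads per transcript model, not normalized, with models annotated against GENCODE M21 on mm10. The sources used here do not give the aligner, tool versions or filters. New genes and spike-ins (4.14% of counts in replicate 2, 4.39% in replicate 1) were left out of totals and tests. Model counts were summed per gene and scaled to the library total (CPM).

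Genes with a summed count of at least 10 were tested with a two-sided exact binomial test (scipy 1.17.1), with Benjamini-Hochberg adjustment over all genes and a threshold of 0.05. A quasi-likelihood test needs residual degrees of freedom, which 1 group of 2 libraries does not leave. Dominant annotated transcripts were compared by Fisher's exact test. The tests were tried on simulated counts with counting error alone, which does not cover spread between libraries. Junctions were counted from the deposited annotations, and sequences come from the M21 transcripts. Near copies were aligned globally.

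Alternatives were TMM scaling and an exact test in edgeR 4.0.16 (R 4.3.3), median-of-ratios size factors from DESeq2 1.42.0, totals of all counts, other minimum counts, reference identifiers alone, models without ISM and Genomic classes, a removed length trend (lowess), a pseudocount of 0.5 CPM, each library alone, and counting on coding bases, the last chosen after seeing the data. By rule, full values are given for members with at least 20 counts or past a threshold, transcripts with at least 10% of annotated counts, new chains seen in both libraries with at least 10 counts, and the 3 most counted genes and all calls of each other list. Members and lists were chosen with earlier results of these data known. Sequences of genes on chromosome 18 are not shown, and gene names are those of the files.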

Additional observations from a re-analysis of the deposited data

How the results depend on the processing

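Of 4 members past the threshold, 2 (Lyz2 and Apoe) remained under TMM scaling, median-of-ratios scaling, no minimum count, and without ISM and Genomic models, and 0 in the exact test of edgeR with a common dispersion. Counted on models that touch their coding bases, 4 passed. Genes past the threshold numbered 331, against 214 with the length trend removed and 22 in edgeR's test. The summed member level of 5688 CPM was 5446 CPM on totals of all deposited counts, 6063 CPM on reference identifiers alone, and 5543 to 5834 CPM with 1 library left out. Transcript choice gave 1 gene, or 12 with new models counted among the other transcripts. Small log2 ratios changed sign for Ctsd (0.02, but -0.06 under TMM, -0.02 under median-of-ratios scaling and -0.07 without the length trend), Ctsb (0.17, but -0.01 without the length trend), C1qc (-0.03, but 0.00 without the length trend) and Cd163 (0.34, but -0.20 on reference identifiers alone and -0.15 without ISM and Genomic models). The causes were not tested. Of the other log2 ratios of members under the alternatives, 341 kept their side of the threshold. These also kept their direction, except for Csf1r (-0.01, but 0.15) and Serping1 (-0.01, but 0.02) on models that touch their coding bases. No paired analysis was possible because the series has 1 group. Counts of 10 to 30 per gene limit what can be seen: with 0 counts a level of up to 2.82 CPM in replicate 2 and 2.83 CPM in replicate 1 cannot be told from none.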
